A study of Mus musculus with 56 samples.

Results

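Gene expression in whole blood was compared between 4 mice injected with 90Sr and 4 control mice at day 4, the earliest day of the series. These 8 arrays, the ones titled for day 4, are 8 of the 56 arrays deposited; each of days 7, 9, 25 and 30 has 12. All mice were C57BL/6, bought at about 10 to 12 weeks of age and kept in quarantine for 14 days. The irradiated mice received 200 kBq of strontium chloride carrying 90Sr by 1 injection into a tail vein; the labels name no agent for the control mice. Blood was drawn from the heart, each array carried the RNA of 1 mouse, and the authors depleted globin transcripts before labeling. The replicates are therefore separate mice. No dissection or sorting separates the cells of whole blood.

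Strontium follows calcium into bone, where the beta particles of 90Sr and of its daughter yttrium reach the marrow around it, so the cells that make blood are exposed for as long as the nuclide stays. Blood RNA is a mixture of reticulocytes and platelets, which carry much RNA but no nucleus, and of white cells. B lymphocytes are among the most radiosensitive of the white cells, and p53, a transcription factor that damaged DNA switches on, drives genes that stop the cell cycle or start cell death.

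Markers of white cells (Ptprc, the pan-leukocyte phosphatase CD45), B cells (Cd79a), T cells (Cd3e), neutrophils (S100a8), monocytes (Csf1r), red cells (Alas2, Slc4a1) and platelets (Pf4, Itga2b) were checked against the label of the tissue. All 9 were well above background on all 8 arrays. Spots well above background numbered between 22073 and 23618 per control array and between 18000 and 22524 per 90Sr array, of 43020 non-control spots. The difference of 2101 spots gave p = 0.0571 in a two-sided exact permutation test, in which 4 against 4 arrays cannot go below 0.0286. Before scaling, the median log2 signal of an array was lower in the 90Sr-injected mice by a mean of 0.656 (3.57 against 4.23) and the 75th percentile by 1.13 (6.05 against 7.19), without overlap of the groups. Both gave p = 0.0286 in the exact permutation test, and over these 3 array values the adjusted p were 0.0429, 0.0429 and, for the spots, 0.0571. How far this difference in signal takes part in the calls was not tested. Each array was scaled on the median of its spots, and a level below is the log2 signal of a gene minus that median. Genes that changed by 2-fold or more with an unadjusted limma p below 0.001 were called, and adjusted p are Benjamini-Hochberg values over all genes tested.

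At day 4 the blood of 90Sr-injected mice was poorer in transcripts of B cells, antigen presentation and monocytes, while transcripts of red cells, platelets and natural killer cells gave no call. Of 14579 genes tested, 3779 (25.9%) were called, 3371 (23.1%) lower and 408 (2.80%) higher. The 90Sr-injected mice lay wholly above or wholly below the control mice for 8075 genes (55.4%), all of the called genes among them. The 4 control arrays lay on 1 slide and the 4 90Sr arrays on another, so slide and treatment cannot be told apart here. In blood, fewer cells of a type and less of an RNA per cell cannot be told apart either.

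The balance of falls and rises followed the value on which arrays were scaled. Falls made 89.2% of the calls with array medians, 90.6% in the authors' processed values, 60.6% with quantile normalization, 40.0% when scaled on the probes detected on all arrays and 29.6% with 75th percentiles. The last of these moved the change of the same genes up by a median of 0.48 on the log2 scale, with other steps where another probe stood for a gene. The median over all genes tested went from 0.04 to 0.71. In all 5 sets of values 1089 genes (7.47%) were called lower and 268 (1.84%) higher, a count chosen after the data were seen. A gene that the filters left out of a set counted as not called there, and another probe could stand for it. For gene lists, the number of members called lower in all 5 sets stands after the number called lower, and the counts are to be read against the 23.1% of all genes called lower and the 2.80% called higher.

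The change also varied with the level of a gene. In 5 groups of genes of equal size by control level, the dimmest 2916 genes had a median log2 change of 0.65, with 231 called higher and 3 lower. The next to brightest group had a median of -0.98, with 19 higher and 1345 lower, and the brightest group one of -0.07, with 13 higher and 801 lower. With quantile normalization the medians of these 3 groups were 0.46, -0.57 and -0.14. The median control level was -0.51 for genes called higher and 3.17 for genes called lower, and 151 of the former and 2380 of the latter were well above background on all 8 arrays. How far the signal level takes part in single calls was not tested.

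**Figure D1:**
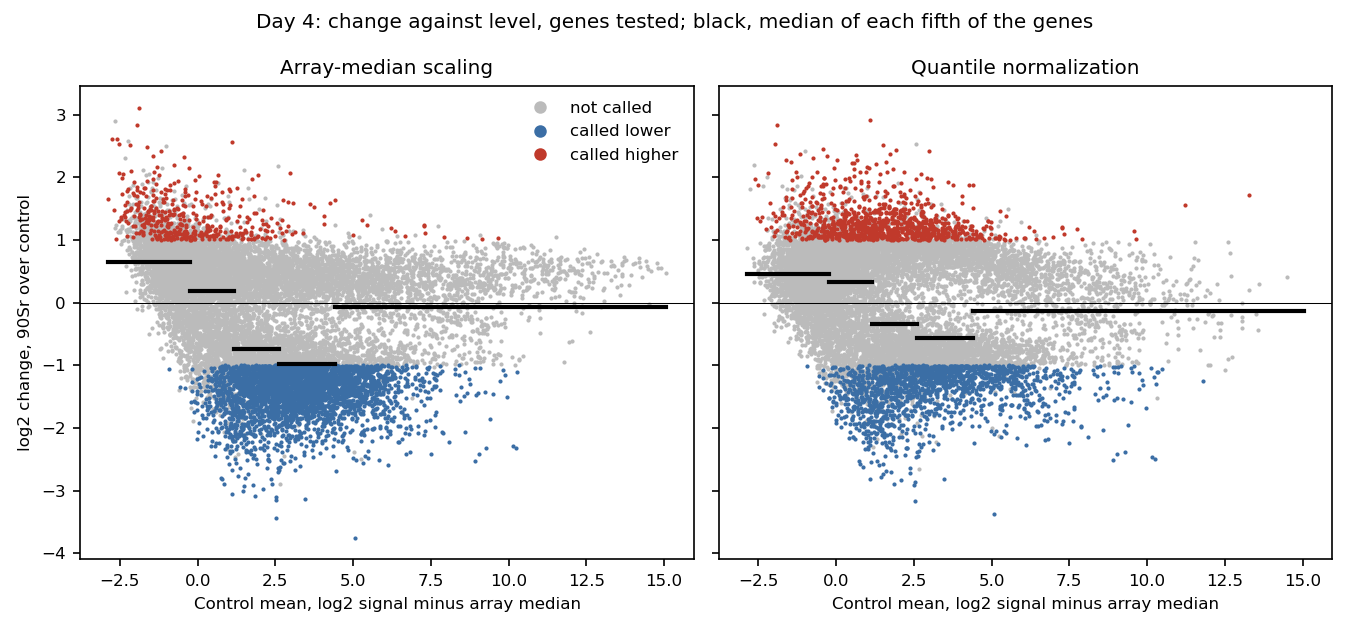
Log2 change at day 4 (90Sr over control, vertical axis) against the mean level in control mice (log2 signal minus array median, horizontal axis) for each gene tested, with array-median scaling on the left and quantile normalization on the right. Blue and red points are genes called lower and higher, and black bars are the medians of 5 groups of genes of equal size by control level, which run from 0.65 in the dimmest to -0.98 in the fourth on the left.

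B cell transcripts had the lowest median of the 45 gene lists examined. Of 18 B cell genes tested, 16 were called lower (15 in all 5 sets of values) and 0 higher. Their median log2 change was -2.21, and that of all genes tested was 0.04. Ms4a1, which encodes the surface protein CD20, had levels of 7.50, 7.48, 7.75 and 7.27 in the control mice and 5.53, 4.37, 5.36 and 5.09 in the 90Sr-injected mice. Its groups were far apart, and it fell by 2.41 ± 0.25 (SE, limma adjusted p = 0.00015). Cd79b, a signaling chain of the B cell receptor, was among the brightest B cell genes, with levels of 9.20, 9.41, 9.56 and 8.94 against 7.13, 6.53, 7.41 and 6.75. It fell by 2.32 ± 0.23, and its partner Cd79a by 2.05 ± 0.20. The largest fall in the list was that of Ebf1, a transcription factor that sets B cell identity, at -3.13 ± 0.46 (adjusted p = 4.0e-04); only 2 of the 4 90Sr arrays were well above background for it. Fcrla, an Fc receptor-like protein inside B cells, fell by 2.51, and outside the list Tnfrsf13b (the receptor TACI) and Iglv1, a lambda light chain segment, fell by 2.47 and 2.42. Other detected probes of Tnfrsf13b gave a change of up to 0.84. The members not called were Ralgps2 at -0.65 and Pax5 at -0.24. The mean level of the B cell list lay between 5.43 and 5.82 in the control mice and between 3.19 and 3.94 in the 90Sr-injected mice. With normexp background correction, which is not among the 5 sets, 0 B cell genes were called lower, and 3 of all genes were.

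Class II antigen presentation moved with the B cell genes. All 12 genes tested were called lower (10 in all 5 sets), with a median of -1.97, and a 13th that passed the detection filter varied too little to be tested. Class II molecules are displayed mainly by B cells, dendritic cells and monocytes, which present peptides to CD4 T cells. H2-Eb1, a class II beta chain, stood at 10.2, 10.2, 10.6 and 10.0 in the control mice and at 8.29, 7.44, 8.33 and 7.66 in the 90Sr-injected mice. It fell by 2.32 ± 0.24, the alpha chain H2-Aa by 1.98 ± 0.21 and the invariant chain Cd74 by 2.07 ± 0.19 (adjusted p = 0.00015 for each). Ciita, the coactivator that class II promoters require, fell by 1.101 ± 0.18 (adjusted p = 6.5e-04) but not in all 5 sets of values.

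Class II promoters carry a Y box, which the factor NF-Y binds close to the start of transcription. The 250 bases before the annotated start of 4 class II genes, all on chromosome 17 and called lower, are shown as examples that hold a match. They are from RefSeq on GRCm38.p6, written 5′ to 3′ on the strand of the gene, with matches to TGATTGG on either strand in capitals.
H2-Aa, chr17:34287824-34288073, minus strand: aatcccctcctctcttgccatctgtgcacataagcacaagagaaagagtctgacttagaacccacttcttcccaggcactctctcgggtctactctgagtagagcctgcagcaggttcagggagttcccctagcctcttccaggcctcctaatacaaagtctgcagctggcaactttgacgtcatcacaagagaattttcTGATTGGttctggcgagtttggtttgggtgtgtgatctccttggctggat
H2-Eb1, chr17:34305617-34305866, plus strand: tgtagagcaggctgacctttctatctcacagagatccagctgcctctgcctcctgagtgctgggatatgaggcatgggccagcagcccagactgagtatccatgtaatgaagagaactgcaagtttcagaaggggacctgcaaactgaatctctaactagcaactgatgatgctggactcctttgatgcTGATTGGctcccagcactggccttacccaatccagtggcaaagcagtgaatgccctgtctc
H2-DMb1, chr17:34152941-34153190, plus strand: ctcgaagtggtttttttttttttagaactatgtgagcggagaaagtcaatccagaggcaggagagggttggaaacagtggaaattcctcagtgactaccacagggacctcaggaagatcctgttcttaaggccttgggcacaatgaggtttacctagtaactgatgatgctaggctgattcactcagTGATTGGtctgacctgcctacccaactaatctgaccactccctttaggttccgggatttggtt
H2-DMb2, chr17:34144999-34145248, plus strand: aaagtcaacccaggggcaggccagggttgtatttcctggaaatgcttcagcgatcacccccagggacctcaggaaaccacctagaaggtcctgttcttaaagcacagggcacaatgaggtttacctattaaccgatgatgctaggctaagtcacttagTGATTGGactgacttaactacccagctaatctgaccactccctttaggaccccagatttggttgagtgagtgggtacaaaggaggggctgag
The match began 50, 61, 63 and 92 bases before the start in H2-Aa, H2-Eb1, H2-DMb1 and H2-DMb2. Of the 12 class II genes tested, 9 had an entry in the promoter table and 6 of these held a match, against 7.23% of all 32851 windows of this length. H2-DMa, Ctss and Ifi30 held no match and were called lower too, at -1.749, -2.065 and -1.446. H2-DMb1 and H2-DMb2, which encode the beta chains of the peptide exchange factor DM, fell by 1.88 ± 0.24 and 1.97 ± 0.21. A match is a description of letters and shows no binding.

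Most signaling genes downstream of the B cell receptor were called lower. Of 19 tested, 17 were called lower (11 in all 5 sets) and 0 higher, with a median of -1.51. Plcg2, the phospholipase that follows the receptor, had levels of 6.83, 6.75, 6.90 and 6.70 against 5.07, 4.51, 4.92 and 4.28 and fell by 2.10 ± 0.20. The kinases Btk and Syk, which act before it, fell by 1.34 ± 0.15 and 1.06 ± 0.15 (adjusted p = 1.6e-04 and 3.3e-04), though not in all 5 sets, and Syk gave -0.97 and no call without 90Sr replicate 4. Ptpn6, a phosphatase that also restrains signaling in myeloid cells, fell by 1.83. Of 6 plasma cell genes tested, Irf4 and Mzb1 were called lower (both in all 5 sets). Irf4, also expressed in activated B cells, fell by 2.48 ± 0.26, with 2 of 4 90Sr arrays well above background. Igj, the joining chain of secreted antibody, changed by -0.30 ± 0.26 (limma adjusted p = 0.33), and its sign turned with the scaling.

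**Figure D2:**
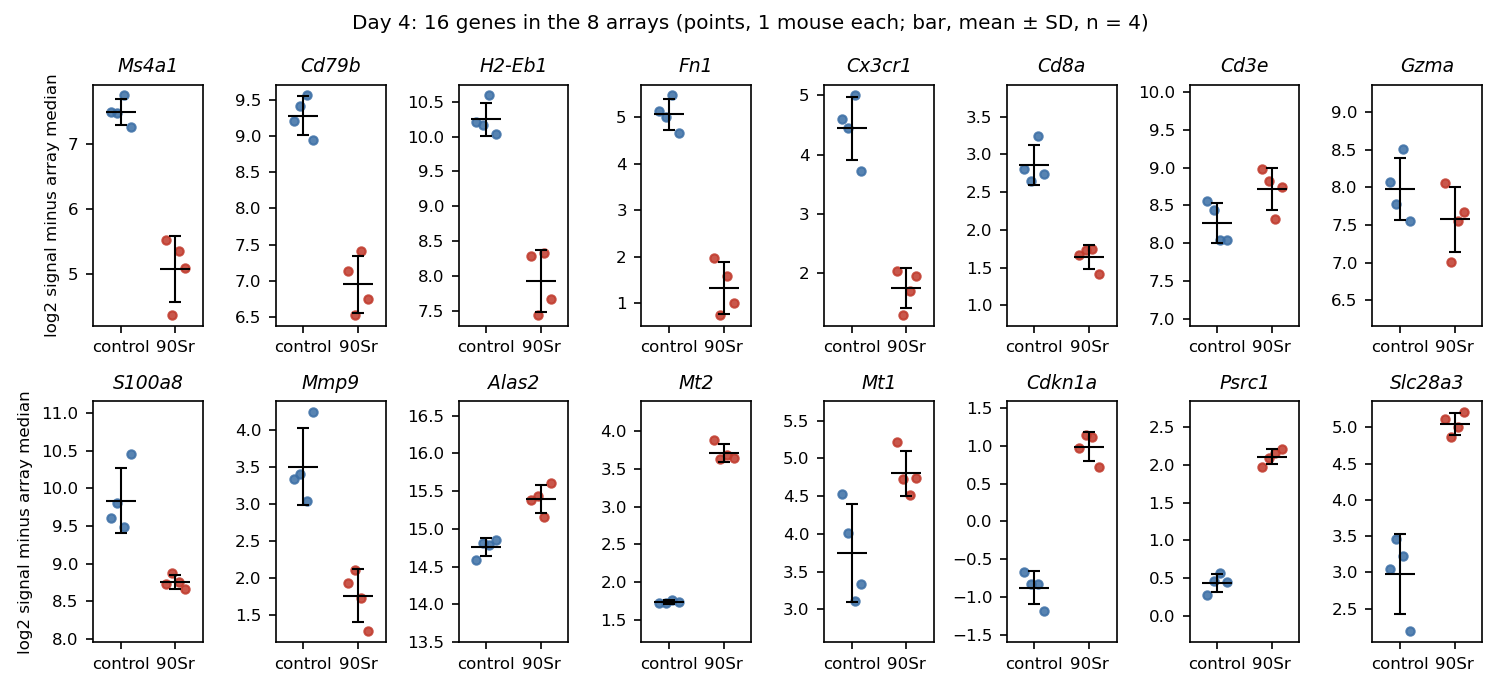
Levels (log2 signal minus array median, vertical axis) of 16 genes in the 4 control mice (blue) and the 4 90Sr-injected mice (red) of day 4; each point is 1 mouse and the bars are the mean ± SD. Ms4a1, Cd79b, H2-Eb1, Fn1 and Cx3cr1 are lower in every 90Sr mouse, Cd3e and Gzma overlap, and Mt2, Cdkn1a, Psrc1 and Slc28a3 are higher in every 90Sr mouse.

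Among monocyte genes 11 of 20 tested were called lower (8 in all 5 sets) and 0 higher, with a median of -1.41. Fn1, which encodes fibronectin, had the largest fall at day 4 among genes well above background on all 8 arrays. Its levels were 5.13, 5.001, 5.47 and 4.66 in the control mice and 1.96, 0.74, 1.58 and 0.997 in the 90Sr-injected mice. The fall of 3.75 ± 0.28 (adjusted p = 0.00015) compares with falls of 1.76, 1.32, 1.59 and 2.56 at days 7, 9, 25 and 30, each against its own controls. The difference from the later mean was -1.94 ± 0.63 and did not pass the test (adjusted p = 0.22). Cx3cr1, the fractalkine receptor of patrolling monocytes, fell by 2.69 ± 0.28 and Ccr2, the receptor that draws classical monocytes out of the marrow, by 2.21. Lyz2, the lysozyme of monocytes and neutrophils, gave -0.05 with overlapping groups. The tested probe of Csf1r, the receptor for the growth factor of monocytes, fell by 1.74 ± 0.17. A brighter probe of Csf1r, left out because it varied little over the series, changed by 0.04.

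T cell and natural killer cell genes gave few calls. Of 18 T cell genes tested, 3 were called lower (0 in all 5 sets, and 5 without control replicate 4) and 0 higher, with a median of -0.83, and without the filter on variation 3 of 23 were lower with a median of -0.47, where 17.4% of all 18795 genes were called lower and 2.14% higher. Cd3e, part of the T cell receptor complex, had levels of 8.56, 8.45, 8.05 and 8.05 against 8.98, 8.82, 8.32 and 8.74. The groups overlapped and the change of 0.45 ± 0.20 did not pass (adjusted p = 0.077). Cd8a fell by 1.22 ± 0.18 (adjusted p = 3.9e-04) and Cd2, an adhesion molecule, by 1.34 ± 0.23. On the 75th percentile scaling 12 T cell genes were tested, Cd8a not among them. Of these 0 were called lower and 1 higher, beside 1123 and 2676 of all 14116 genes. Of 13 T cell receptor signaling genes tested, 6 were called lower (5 in all 5 sets) and 1 higher. The higher one was Plcg1 at 1.31 ± 0.18, while another of its probes gave -0.83. Without the filter on variation 0 of the list were called higher. This list shares adapters with other cells, and Ptprc and Nck1, an adapter, fell by 1.52 and 1.94. None of 16 natural killer cell genes tested was called in either direction, and the median was -0.31. Gzma, a granzyme that these cells store, overlapped between the groups at -0.40 ± 0.27.

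Of 18 neutrophil genes tested, 5 (27.8%) were called lower (0 in all 5 sets) and 0 higher, with a median of -0.95. That share is near the 23.1% of all genes, and the count was 3 without control replicate 2 or 4 or without any 1 of the 4 90Sr arrays. S100a8, a subunit of the calprotectin that fills neutrophils, had levels of 9.60, 9.80, 9.48 and 10.4 against 8.73, 8.88, 8.76 and 8.66. It fell by 1.07 ± 0.22 (adjusted p = 0.0021), a call lost without 1 or another of 6 arrays. Mmp9, a gelatinase of neutrophil granules, fell by 1.74 ± 0.28. Of 9 eosinophil and basophil genes, 3 were called lower (0 in all 5 sets) and 0 higher; Ear2, an eosinophil ribonuclease, fell by 1.84 ± 0.35, a call lost without 1 or another of 6 arrays. Of 12 dendritic cell genes, 4 were called lower (3 in all 5 sets) and 1 higher. The lower ones included Ly6d at -1.99 and Irf8 at -1.84, which B cells express too, and Siglech, specific to plasmacytoid cells, gave 0.04 ± 0.63. Another detected probe of Siglech gave -1.3. Of 11 stem and progenitor cell genes, 4 were called lower (0 in all 5 sets) and 1, Prtn3, higher at 1.04 ± 0.19, a call lost without 1 or another of 5 arrays.

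None of the red cell and platelet genes tested was called. None of 19 erythroid genes tested was called, and their median was 0.55. Alas2, the first enzyme of heme synthesis in red cells, had levels of 14.6, 14.8, 14.8 and 14.8 against 15.4, 15.4, 15.2 and 15.6. Every 90Sr mouse was above every control mouse, but the change of 0.64 ± 0.16 was below 2-fold (adjusted p = 0.006). On the 75th percentile scaling 13 of 26 erythroid genes were called higher, where 2676 of all 14116 genes were. With quantile normalization 5 of 17 were, where 1072 of all 13752 genes were. Of 25 genes of heme synthesis and iron handling, 2 were called lower (1 in all 5 sets) and 0 higher, with a median of 0.47; the lower ones were Mfsd7b, a heme exporter, and Slc40a1, the iron exporter ferroportin of macrophages, at -1.502 and -1.42. None of 7 platelet genes tested, and none of the 23 that passed the detection filter, was called, with medians of 0.21 and 0.10.

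**Figure D3:**
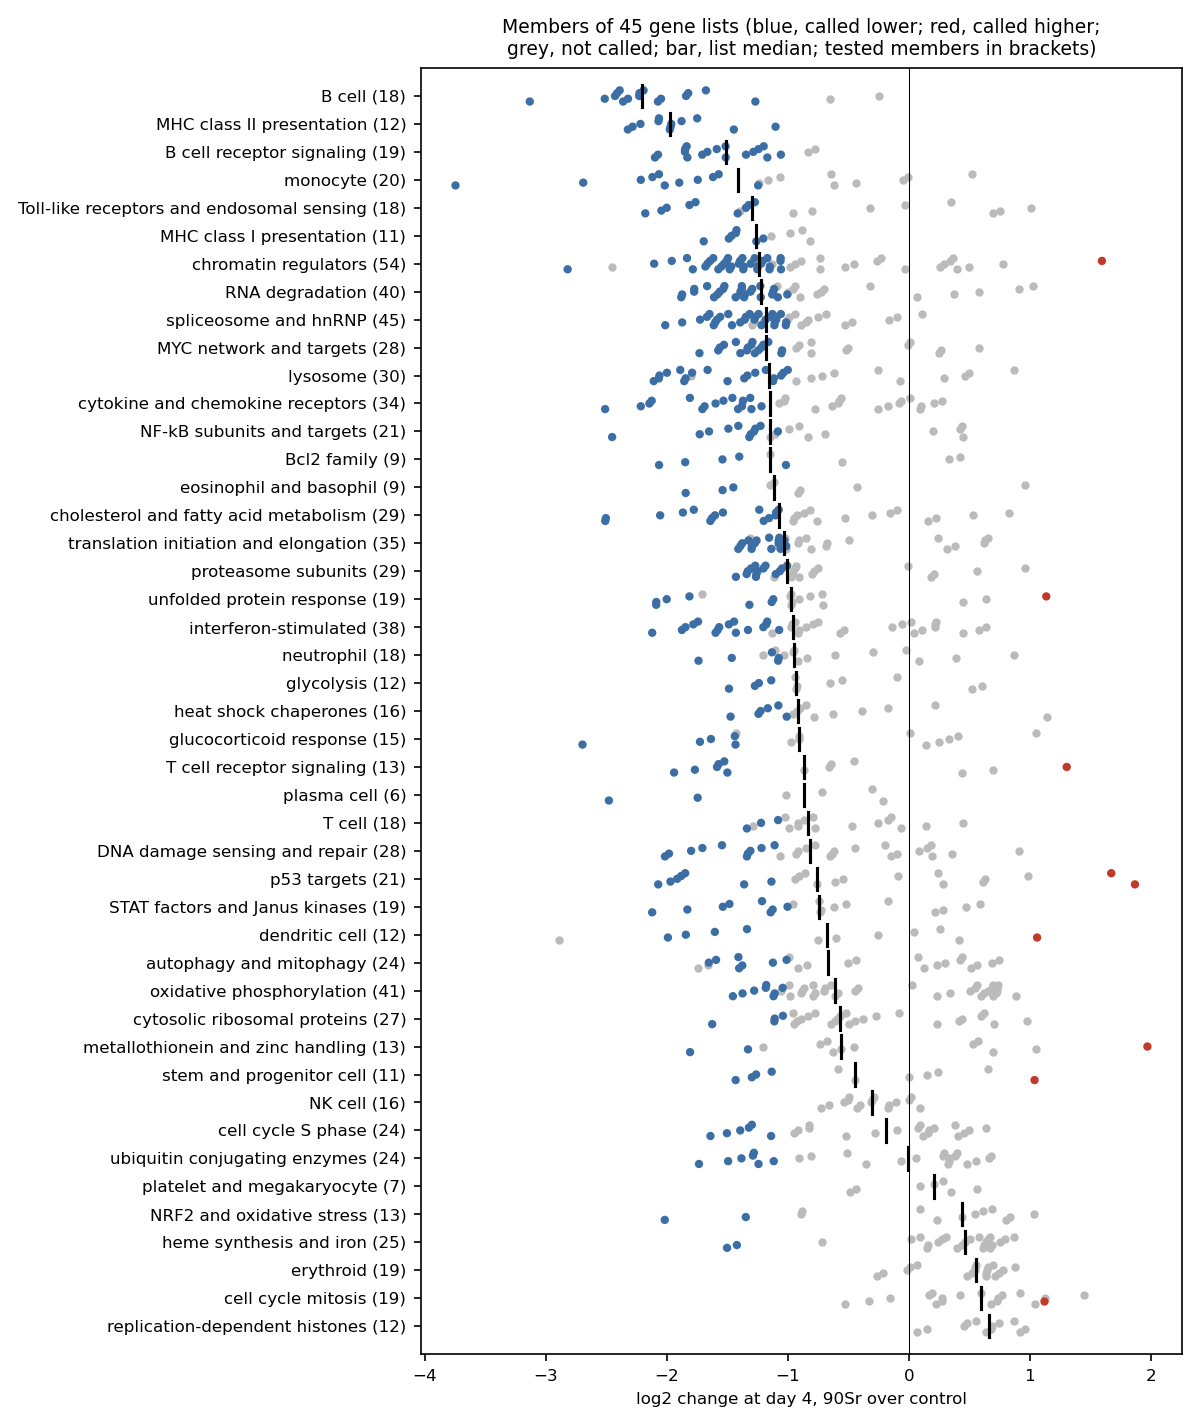
Log2 change at day 4 (90Sr over control, horizontal axis) of the tested members of 45 gene lists, in order of the list's median (black bar). Blue and red points were called lower and higher, and grey ones were not called; B cell genes have a median of -2.21 at the top and replication-dependent histones one of 0.66 at the bottom.

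Targets of p53 moved in both directions. Of 21 tested, 2 were called higher and 7 lower (2 and 4 in all 5 sets), with a median of -0.76. Cdkn1a, the p21 inhibitor that stops the cell cycle, had levels of -0.67, -0.83, -0.83 and -1.19 in the control mice and 0.97, 1.14, 1.12 and 0.73 in the 90Sr-injected mice. The probe tested was well above background on no control array and on all 4 90Sr arrays, so it was at least 3.04-fold higher (adjusted p = 0.00015). A dimmer probe, well above background on 1 control and 2 90Sr arrays, gave a difference of 1.08. Psrc1, a spindle protein that p53 regulates, rose by 1.67 ± 0.14 from levels of 0.28, 0.46, 0.56 and 0.44 to 1.98, 2.10, 2.15 and 2.21. Rrm2b, the ribonucleotide reductase subunit that p53 induces, was called lower but was well above background on no 90Sr array, so it was at least 1.11-fold lower. Pmaip1, which encodes the death factor Noxa, fell by 1.85. Of 9 Bcl2 family genes tested, 5 were called lower (3 in all 5 sets), among them Bmf, which promotes death, and Mcl1, which prevents it, at -2.06 ± 0.35 and -1.40 ± 0.21. Of 28 DNA damage and repair genes, 10 were called lower (3 in all 5 sets) and 0 higher. Parp1, which senses strand breaks, fell by 2.02 ± 0.24. The tested probe of the kinase Atm, with no 90Sr array well above background, was at least 1.82-fold lower (limma adjusted p = 4.4e-04). Another probe of Atm, also well above background on all 4 control arrays and no 90Sr array, was at least 1.13-fold lower.

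Of 24 S phase genes of the cell cycle tested, 6 (25.0%, near the 23.1% of all genes) were called lower (2 in all 5 sets) and 0 higher; Pold1, a subunit of DNA polymerase delta, fell by 1.64 ± 0.16. Of 19 mitotic genes, 0 were called lower and 1, the kinesin Kif20a, higher at 1.12 ± 0.19 (0.97 and not called without control replicate 3), with a median of 0.60. None of 12 replication-dependent histone genes was called, with a median of 0.66. On the 75th percentile scaling 11 of 25 tested were called higher, beside 2676 of all 14116 genes.

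Mt2, a metallothionein that binds zinc and other metals, was the only one of 13 metallothionein and zinc handling genes called higher, and 2 were called lower (1 in all 5 sets). Its control mice lay at 1.73, 1.72, 1.77 and 1.74 and its 90Sr-injected mice at 3.89, 3.63, 3.68 and 3.64. The rise of 1.97 ± 0.14 (adjusted p = 0.00015) stood in all 5 sets of values, and the values at days 7, 9, 25 and 30 were 2.24, 2.76, 2.10 and 2.01. Mt1, its neighbor on chromosome 8, gave 1.05 ± 0.31 with overlapping groups (adjusted p = 0.014), and another probe of Mt1 gave 0.06. On the 75th percentile scaling Mt1 was called at 1.53 and with quantile normalization at 1.43. There 3 and 2 of 11 members tested were higher, beside 2676 of all 14116 and 1072 of all 13752 genes. Slc30a5 and Slc39a7, zinc transporters of the secretory pathway, fell by 1.81 and 1.33. Metallothionein genes are switched on through metal response elements. The 250 bases before the start of Mt2 are shown because it alone of the list was called higher in all 5 sets (RefSeq, GRCm38.p6, 5′ to 3′). Capitals mark matches to the letters TGCNCNC on either strand, where N is any base. These letters are a loose pattern, and a match need not be a metal response element.
Mt2, chr8:94172368-94172617, plus strand: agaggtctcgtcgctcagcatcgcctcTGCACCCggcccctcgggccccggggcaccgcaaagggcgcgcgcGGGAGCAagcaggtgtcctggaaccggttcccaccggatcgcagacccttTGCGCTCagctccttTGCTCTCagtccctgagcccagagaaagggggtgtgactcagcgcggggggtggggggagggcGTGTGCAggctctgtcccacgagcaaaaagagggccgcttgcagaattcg
The window held 5 matches. Of all 32851 windows of this length, 44.4% held at least 1 match and 0.344% at least 5, and the window of Mt4, which was not called at 0.53, held 4. Of 12 genes of the list with a window, 9 held a match, among them 2 of 2 called lower and 6 of 9 not called.

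With array medians, other stress programs gave mostly falls or no call. Of 13 NRF2 and oxidative stress genes tested, 2 were called lower (1 in all 5 sets) and 0 higher, with a median of 0.44. Every injected mouse lay above every control mouse for 7 of the 13 genes, and below for 4. Over all genes tested the groups did not overlap for 55.4%. Scaled on 75th percentiles, 8 of 15 members were called higher and 1 lower, beside 2676 and 1123 of all 14116 genes. With quantile normalization 2 of 9 were called higher and 1 lower, beside 1072 and 1651 of all 13752 genes. Mgst1, a membrane glutathione transferase, fell by 2.02 ± 0.26. Nqo1 gave 0.62 ± 0.15 with the groups apart and was not called. Of 15 glucocorticoid response genes, 5 were called lower (2 in all 5 sets) and 0 higher. Zfp36, which destabilizes cytokine messages, fell by 2.70 ± 0.30. Of 19 unfolded protein response genes, 7 were called lower (4 in all 5 sets) and 1 higher, Asns, which makes asparagine, at 1.14 ± 0.16. Of 16 heat shock chaperones, 6 were called lower (0 in all 5 sets), with Hspa4 at -1.47 ± 0.17 (0.08 in another probe).

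Genes of innate sensing and of cytokine signaling fell in part. Of 18 Toll-like receptor and endosomal sensing genes, 9 were called lower (5 in all 5 sets) and 0 higher. Unc93b1, which carries nucleic acid sensing receptors to endosomes, had levels of 6.65, 6.59, 6.64 and 6.43 against 4.69, 4.36, 4.61 and 3.93 and fell by 2.18 ± 0.19. Of 38 interferon-stimulated genes, 16 were called lower (9 in all 5 sets) and 0 higher, with a median of -0.95. Stat2, a subunit of the factor that type I interferon activates, fell by 2.12 ± 0.19, while Isg15, the brightest effector named here, gave 0.58 ± 0.19 with overlapping groups. Of 19 STAT and Janus kinase genes, 8 were called lower (3 in all 5 sets). Of 21 NF-kB genes, 11 were called lower (3 in all 5 sets), with Rela, a subunit of NF-kB, at -1.28 ± 0.18 and Cd40, a costimulatory receptor of B cells, at -2.45 ± 0.23. Of 34 cytokine and chemokine receptors, 16 were called lower (8 in all 5 sets). Ccr6, the receptor for the chemokine Ccl20, led them with levels of 5.04, 4.93, 5.34 and 5.06 against 2.93, 2.17, 2.86 and 2.35. Of 11 class I presentation genes, 7 were called lower (1 in all 5 sets), among them Tap1, a subunit of the peptide transporter, at -1.49 ± 0.15. No member of these last 4 lists was called higher.

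Most calls in genes of RNA and protein handling were not made in all 5 sets of values. The same held over all genes, of which 3371 were called lower and 1089 (7.47% of those tested) in all 5 sets. Of 45 spliceosome and hnRNP genes, 29 were called lower but 8 in all 5 sets, with a median of -1.18. Of 40 RNA degradation genes the counts were 26 and 8, of 28 MYC network genes 17 and 4, and of 35 translation factors 18 and 0. Of 29 proteasome subunits 14 and 0 were lower, and of 27 cytosolic ribosomal proteins 4 (1 without control replicate 3) and 0. No member of these 6 lists was called higher. Hnrnpa1, a splicing regulator, fell by 1.73 ± 0.25, Cnot1, the scaffold of the deadenylase complex, by 1.56 ± 0.20, and Myc by 1.24 ± 0.20. Rpl22, a ribosomal protein, fell by 1.62 ± 0.21 (-0.56 in a brighter probe left out by the filter on variation), while Rplp0, of the ribosomal stalk, gave 0.59 ± 0.17. Of 54 chromatin regulators, 33 were called lower (13 in all 5 sets) and 1 higher. Tet2, which oxidizes methylated cytosine, fell by 2.82 ± 0.36 with 1 of 4 90Sr arrays well above background, Smarca4, the motor of a remodeling complex, fell by 1.53 ± 0.17, and Hdac9, a class II deacetylase, rose by 1.60 ± 0.26. Other detected probes gave 0.35 for Tet2 and 0.23 for Smarca4.

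Metabolic and degradative genes showed the same mixture. Of 30 lysosome genes, 19 were called lower (10 in all 5 sets), led by Ctsh, a cathepsin, at -2.11 ± 0.26. Of 29 cholesterol and fatty acid genes, 15 were called lower (9 in all 5 sets). Abca1, which exports cholesterol, fell by 2.51 ± 0.30. Of 41 oxidative phosphorylation genes 8 were called lower, of 12 glycolysis genes 4, of 24 autophagy and mitophagy genes 7 and of 24 ubiquitin conjugating enzymes 7. In all 5 sets these counts were 0, 0, 1 and 1. None of these 6 lists had a member called higher. On the 75th percentile scaling 15 of 32 oxidative phosphorylation genes were called higher, beside 2676 of all 14116 genes.

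Other large falls among genes well above background on all 8 arrays were those of Wdfy4, Cd55, Swap70, Il4i1, Pla2g2d, Mnda and Spib. Wdfy4, which takes part in cross-presentation, had levels of 5.87, 5.91, 6.37 and 6.32 against 3.76, 3.29, 3.89 and 3.17 and fell by 2.59 ± 0.22. Cd55, which protects cells from complement, fell by 2.56 ± 0.21. Swap70, a signaling protein of B cells, fell by 2.48 ± 0.27 and Il4i1, an amino acid oxidase, by 2.45 ± 0.19. Pla2g2d, a secreted phospholipase, fell by 2.45 (0.53 in another probe), and Mnda, named Ifi211 in the RefSeq table, by 2.40. Spib, a transcription factor on the B cell list, fell by 2.39 ± 0.21. For genes well above background on all control arrays and no 90Sr array, only a bound of the fold can be given, and 172 genes with a plain symbol, counted over all of their probes, were called lower in this way. The largest bounds were those of Cbfa2t2, P2ry6 (a receptor for UDP), Zeb1 (a transcriptional repressor), Nt5dc3 and Blk, a Src kinase of B cells. They were at least 4.76-, 4.70-, 3.98-, 3.78- and 3.78-fold lower.

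Apart from Mt2 and Psrc1, the largest rises among genes well above background on all 8 arrays were the following. Olfr1222, an olfactory receptor, had levels of 0.80, 1.28, 1.96 and 0.39 in the control mice and 3.44, 3.47, 3.95 and 3.83 in the 90Sr-injected mice, a rise of 2.57 ± 0.31 (adjusted p = 2.0e-04). Slc28a3, a nucleoside transporter, rose by 2.07 ± 0.26 from 3.05, 3.46, 3.23 and 2.19 to 5.11, 4.86, 5.01 and 5.21. Both groups were apart for each of these genes. Sco1, a copper chaperone of mitochondria, rose by 2.03 ± 0.42 (adjusted p = 0.0023), a call lost without 1 or another of 5 arrays. Olfr1109, the kinase Pak7, Fat2, the calcium channel Cacna1g, Mypop, Cpped1, the protease Adamts13, Olfr521 and Slc25a44 rose by 1.95, 1.93, 1.86, 1.81, 1.78, 1.76, 1.66, 1.64 and 1.63. Of the genes in this paragraph Slc25a44 was the brightest in control mice, with a mean level of 4.40. Faah rose by 1.92 while another of its probes gave -0.50, another of Slc25a44 gave -0.22, and a brighter probe of Cpped1, left out by the filter on variation, gave 0.17. Other detected probes of Sco1, Pak7 and Cacna1g gave 0.45, 0.51 and 0.90, all below 2-fold. The later values of Olfr1222 were 0.95, -0.29, 1.04 and 2.31 and those of Slc28a3 0.74, -0.43, 0.90 and 2.09 at days 7, 9, 25 and 30. The differences of day 4 from the later mean did not pass (adjusted p = 0.12 and 0.26). In the other direction of background, 7 genes with a plain symbol were well above it on all 90Sr arrays and had no probe well above it on any control array. Lce1a1, Gng13 (a G protein subunit), Gipr, Mc4r (hormone receptors) and Olfr644 were at least 3.66-, 2.90-, 2.90-, 2.87- and 2.68-fold higher. That of Lce1a1 was lost without 1 or another of 3 arrays.

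The change at day 4 was also tested against the mean of the changes at days 7, 9, 25 and 30 in 1 fit of all 56 arrays. A gene passed at an adjusted p under 0.05 with a difference of at least 2-fold and a day 4 value outside the range of the later ones. Of 14580 genes 15 (0.103%) passed, all with a lower value at day 4 than at any later day. Of these, 14 were not called at day 4, and the 4 of them named here were chosen after their values were seen. Sox6, a transcription factor of red cell precursors, changed by -0.59 at day 4 and by 0.28, 1.24, 0.52 and 1.59 later. Anp32e, a histone chaperone, changed by -0.24 at day 4 and by 0.72, 1.47, 0.94 and 1.12 later. Pbrm1 and Tnrc6b, of a chromatin remodeler and of microRNA silencing, gave differences of -1.45 and -1.28. The remaining ones had differences from -1.89 to -1.12. This test rested on few arrays. Without 1 of the 8 day 4 arrays between 0 and 18 genes passed, with the slide as a random block 0 did, and on the 75th percentile scaling 1 did.

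**Figure D4:**
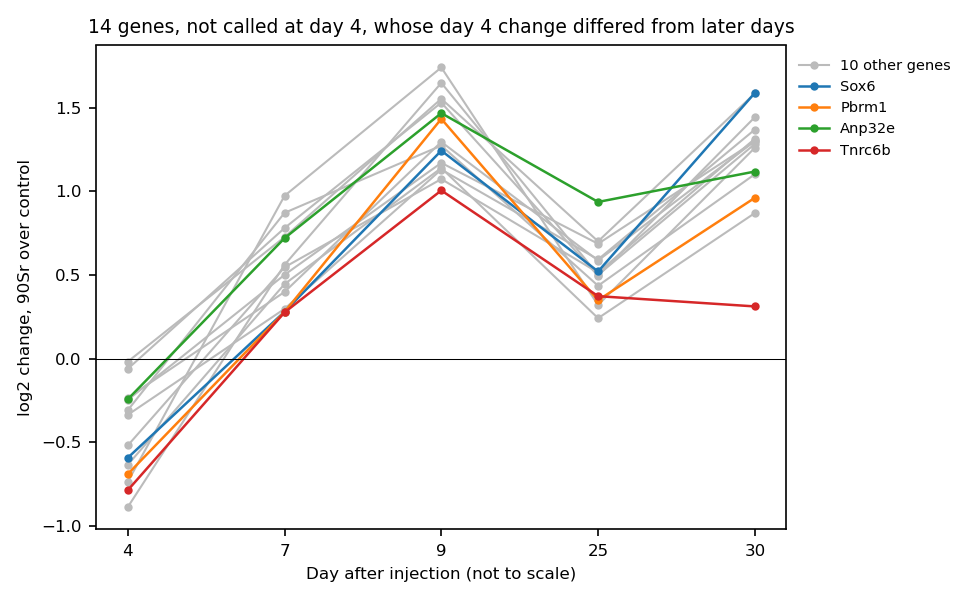
Log2 change (90Sr over control of the same day, vertical axis) by day (4, 7, 9, 25 and 30, horizontal axis, not to scale) for the 14 genes not called at day 4 whose day 4 change differed from the mean of the later days, 4 of them in color and 10 in grey. Each line is 1 gene; Sox6 runs from -0.59 at day 4 to 1.24 at day 9, and every line is lowest at day 4.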

How the data were processed

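The labels name whole blood of C57BL/6 mice on one-color Agilent arrays. The authors deposited for each array the Feature Extraction output (version 10.7 per the labels, 11.5.1.1 per the file headers), of which the processed signal is an intensity on a linear scale after background correction, with no scaling between arrays. They also deposited a table of log2 values of the same arrays, used as an alternative.

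Log2 intensities were centered on each array's median over 43020 non-control spots, non-uniform spots were set as missing, and spots of 1 probe were averaged. A probe was kept if it was dim (not above background) or non-uniform on fewer than 25% of the 56 arrays (18796 genes remained). It also had to differ 1.5-fold from its median on at least 20% (14580 genes remained, 14579 with values at day 4). The brightest remaining probe stood for a gene. The control and 90Sr mice of day 4 were compared with limma 3.58.1 in R 4.3.3 (lmFit, eBayes), and the slide was set as a random block with statmod 1.5.0. Of the genes tested, 10986 had an accession in the RefSeq table, which gave another symbol for 777; the names of the array files were kept. The number of arrays limits the precision, since intensities have no counting depth.

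Genes named in the text are the 15 largest rises and falls well above background on all 8 arrays without overlap, the 5 largest bounds each way, set members and the largest called changes of each of the 45 gene lists, and genes passing the test against later days. Some of these genes are not reported here. Other list members were named after their values were seen. For a bound, each array of the dimmer group was given the probe's own level or the lowest level well above background, whichever was higher, and their mean was subtracted from that of the brighter group. The lists were written from general knowledge, and the members and lists were chosen with earlier results of these data known.

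The fits were tested on simulated data. Alternatives were other scalings, normexp background correction, other filters, the mean of probes, array weights, the replicate number as a block, 1 fit of all 10 groups, an adjusted threshold and each array left out. No column of sample values was left unused.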

Additional observations from a re-analysis of the deposited data

Results flagged for a closer look

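In 11 of the 228 sets of 4 arrays behind the named genes, 1 array stood far from the other 3 (Dixon's criterion, which chance meets in about 1 set in 20). Replicate 4 of the control mice was that array for Sco1 (0.45, next value 2.30), Ear2 (4.05, next 5.37), Lyz2 (6.12, next 7.21), Pold1 (4.19, next 4.41), Igj (3.08, next 2.38) and Slc40a1 (4.04, next 3.88). Among the 90Sr-injected mice, replicate 2 was lowest for Cd40 (-0.10, next 0.74), Mnda (1.11, next 1.65) and Blk (-1.56, next -0.39). Replicate 4 was lowest for Syk (5.37, next 5.69), and replicate 1 was highest for Slc40a1 (2.70, next 2.43). The values are log2 signals minus the array median.

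The change at day 4 differed from the mean change of the later days, by limma's test of that difference in a fit of all 56 arrays, for 4 of the named genes. The differences were -1.501 for Sox6, -1.45 for Pbrm1, -1.30 for Anp32e and -1.28 for Tnrc6b, with adjusted p between 0.039 and 0.049.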

How the results depend on the processing

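The split into rises and falls moved with the scaling, as did the test against later days. Higher and lower calls numbered 2676 and 1123 with 75th percentiles, 1072 and 1651 with quantile normalization, and 2101 and 1403 when scaled on the probes detected on all arrays. With normexp correction 3 genes were called, 0 higher and 3 lower; the background SD it fitted ranged from 1.17 to 848 over the 8 arrays. The number called higher was also 182 with the stricter filter on dim probes, 256 in 1 fit of all 10 groups and 816 at an adjusted p under 0.05. Leaving out 1 array gave between 2969 and 3976 calls, 295 to 446 higher and 2674 to 3530 lower. With the replicate number as a block 3741 genes were called, 384 of them higher. Same-numbered control and 90Sr arrays deviated together with correlations of 0.309, 0.0751, 0.14 and 0.206, each control array correlating best with its own number, but the labels tie the numbers to no shared animal or day, and the block was not used.

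Against later days, 15 genes became 1 with 75th percentiles, 1 when scaled on detected probes, 0 with normexp, 27 without the filter on variation, 32 with the stricter filter, 3 without filters, 2 with filters on the day 4 arrays, 2 with the mean of probes, 311 with array weights, 0 with the replicate block, 0 with the slide as a random block, 24 against days 7 and 9 only, and 0 to 18 without 1 array.

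Some values of named genes turned sign, all but Csf1r, Asns and Cpped1 of genes that were not called. With normexp, Alas2, Asns, Cd3e, Cpped1, Isg15, Mt1, Rplp0, Siglech and Slc4a1 gave -1.09, -0.14, -1.20, -0.62, -1.10, -0.35, -0.99, -1.54 and -1.19. With 75th percentiles, Anp32e, Csf1r, Gzma, Igj, Pax5 and Pbrm1 gave 0.24, 0.52, 0.080, 0.18, 0.23 and 0.44, and when scaled on detected probes Anp32e, Csf1r, Gzma, Igj, Pax5 and Pbrm1 gave 0.17, 0.45, 0.0092, 0.11, 0.16 and 0.37. With quantile normalization, Igj and Pbrm1 gave 0.16 and 0.43. Csf1r gave 0.038 without the filter on variation and without filters, where a brighter probe stood for it. That probe also stood for Csf1r with 75th percentiles and when scaled on detected probes. Pax5 gave 0.19 with filters on the day 4 arrays. Siglech gave -1.32 in the authors' values, -0.63 as the mean of its probes and -0.60 to 0.41 without 1 array, and Lyz2 -0.35 to 0.066 without 1 array.

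Of the other alternatives for named genes, 2114 kept their direction and their side of the threshold, 147 kept the direction and lost the call, 63 of these under normexp, and 9 gained a call. The cause was not tested. Dim probes limit the falls of genes near background, which are given as bounds.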
